A study of Mus musculus with 30 samples.

Results

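Messenger RNA of the kidney was compared with that of the retina in mice that were wild-type for Camk2d and not diabetic, with 4 kidney and 3 retina libraries out of the 30 libraries of a mouse RNA sequencing series. The series crossed a global knockout of Camk2d, which encodes the delta subunit of calcium/calmodulin-dependent protein kinase II, with the diabetic Lepr(db/db) background, and it sampled kidney and retina at 16 weeks of age. All 7 libraries came from 16-week-old wild-type mice that carried Lepr(+/+) and had the label of a normal diabetic status. The kidney libraries are called K812, K819, K834 and K861 and the retina libraries R812, R819 and R852 after the numbers of the animals, so that K812 and R812, and K819 and R819, came from the same animal and 2 of the 5 animals gave both organs. Tissue was flash frozen before RNA was extracted, and the labels name no strain, sex, litter, dissection method or pooling of eyes. By Xist and the Y-linked genes, K812, R812, K861 and R852 came from males and K819, R819 and K834 from females. The members of the comparison were chosen by label alone, and the comparison is described across all genes.

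The kidney filters blood in the glomerulus, whose podocytes form the filtration slit, and then recovers most of the filtrate along the tubule. The proximal tubule takes up glucose, amino acids, phosphate and filtered protein and also makes glucose, the thick ascending limb and distal convoluted tubule reabsorb salt, and the collecting duct adjusts water, potassium and acid. The retina is a layer of central nervous tissue in which rod and cone photoreceptors turn light into a change of membrane voltage through opsins, transducin, phosphodiesterase and cyclic-nucleotide-gated channels. Bipolar, horizontal and amacrine cells process that signal, ganglion cells send it to the brain, and Mueller glia support the layers. Organs with such different cells differ in their most abundant transcripts, so the way in which libraries are scaled to each other bears on the differences between them.

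Kidney libraries held 21997790 to 22361357 counts and retina libraries 20238712 to 20711550 counts. Mitochondrially encoded genes took 23.5 to 36.4% of the counts of the kidneys, against 6.83 to 7.65% in the retinas. Together with 7 nuclear copies of them the shares were 29.3 to 44.7% in the kidneys and 8.39 to 9.46% in the retinas. Of the remaining, nuclear-encoded TPM (the transcript share of a gene, a level per length), the 10 highest genes held 13.4 to 20.8% in the kidneys and 8.13 to 8.3% in the retinas. It took 205 to 384 genes to make up 50% of that TPM in the kidneys and 997 to 1052 genes in the retinas. K861 stood apart, with the highest mitochondrial share and the lowest number of genes at 1 TPM or more, 12669, against 13836 to 14145 in the other kidneys and 18460 to 18978 in the retinas.

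Unless TPM is named, levels below are CPM, the counts of a gene relative to a library total scaled by the trimmed mean of M values (TMM), and differences are log2 kidney minus retina with the standard error of the fit (n = 4 kidneys and 3 retinas). A gene is called higher in 1 organ where the adjusted p of edgeR's quasi-likelihood test was under 0.05. TMM put the median difference over all 20485 genes tested at -0.06, whereas scaling by library totals put it at -1.0 and log2(TPM + 1) at -1.16. Some kidney-higher differences turned into retina-higher ones with library totals or with TPM, which also divides by transcript length. That of Ivd, at 2.37, did so with TPM and not with library totals.

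Of the 20485 genes tested, 15322 (74.8%) differed between the organs, 7410 (36.2%) higher in kidney and 7912 (38.6%) higher in retina. Beyond 2-fold, by a test against that fold and not against 0, 9900 genes (48.3%) differed, of which 4973 (24.3%) were higher in kidney and 4927 (24.1%) in retina. The kidney share of these calls was 50.2%, but 26.6% with library totals and 12.9% with log2(TPM + 1). The libraries of the organs did not overlap for 7401 genes (36.1%) higher in kidney and 8215 genes (40.1%) higher in retina. Counts of members given below are to be read against these shares. With library totals 4485 of the 20485 genes were higher in kidney and 11911 in retina, and with log2(TPM + 1) 2859 and 14580. Splits under those scalings are to be read against these counts. A gene could pass the expression filter through 1 organ alone. Where it was almost absent from the other organ, the direction of its call was fixed in advance.

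The most abundant nuclear transcript of the kidney was Kap, an androgen-responsive gene of the proximal tubule, with 43093, 26564, 26155 and 46807 TPM in K812, K819, K834 and K861, against 0.532, 1.94 and 0 TPM in R812, R819 and R852, the order in which values of single libraries are given throughout. Both kidneys of male animals exceeded both kidneys of female animals. Gpx3, a secreted glutathione peroxidase, followed with 13905 ± 1305 TPM in kidney and 50.8 ± 29.9 TPM in retina (SD, n = 4 and 3). The other leading kidney genes had means of 1963 to 4063 TPM there, among them the ferritin chains Fth1 and Ftl1, the mitochondrial ATP synthase subunit Atp5b, the kallikrein Klk1, the sodium pump regulator Fxyd2, the phosphate transporter Slc34a1 and the inositol oxygenase Miox. Reads of Ftl1 are uncertain, because only 35.9% of its 31-base stretches were its own.

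The most abundant nuclear transcripts of the retina were led by genes of the rods. Gnat1, the rod transducin alpha subunit, averaged 1.84 ± 0.587 TPM in kidney and 8895 ± 313 TPM in retina (SD, n = 4 and 3). Bc1, a neuronal non-coding RNA, averaged 84.3 ± 22.7 TPM in kidney and 4136 ± 721 TPM in retina. Sag (rod arrestin), Pde6g (the inhibitory subunit of rod phosphodiesterase), Prph2 (a disc rim protein) and Pdc (phosducin, which binds transducin) followed, with means of 2946 to 3767 TPM in retina and at most 1.01 TPM in kidney. Gapdh was the only gene among the 12 highest of both organs, at 1963 ± 218 TPM in kidney and 4082 ± 112 TPM in retina.

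**Figure D1:**
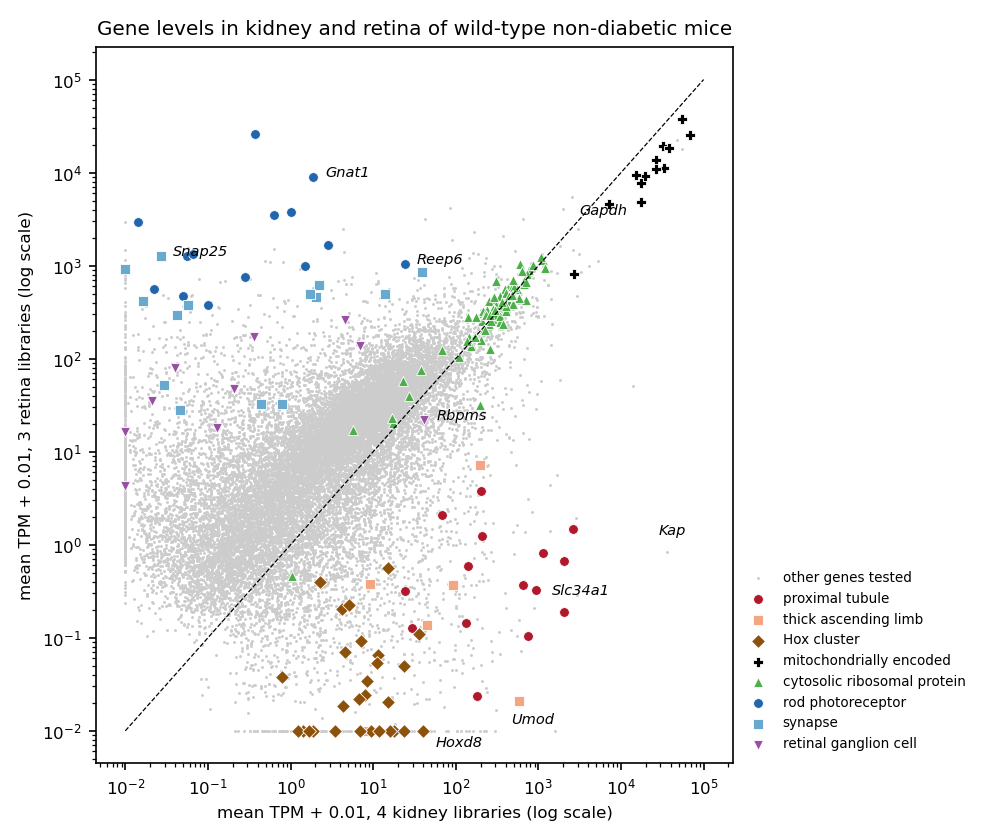
Mean TPM of each gene tested in the 4 kidney libraries (horizontal) against the 3 retina libraries (vertical), both on log scales with 0.01 TPM added and with equal levels on the dashed line; coloured points are members of the named groups. Gnat1 lies at 1.84 TPM in kidney and 8895 TPM in retina, Kap at 35655 and 0.823 TPM, and most unmarked genes lie above the dashed line.

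The largest differences among abundant genes were between a high level in 1 organ and almost no count in the other. In kidney, S100g, a calcium-binding protein of the distal nephron, had 374, 827, 751 and 932 CPM and not a single count in the 3 retinas, which puts it at least 21405-fold higher in kidney against a floor of 3 counts over the group. Umod (uromodulin, secreted by the thick ascending limb), Keg1 (an acyltransferase of kidney) and Slc6a18 (an amino acid transporter) had 133505, 110182 and 59540 counts over the kidneys, against 1, 2 and 1 counts over the retinas. Klk1 had 1873, 3487, 4050 and 3000 CPM in the kidneys and 0.102, 0.133 and 0 CPM in the retinas (15.17 ± 0.69, adjusted p = 2.38e-07, edgeR). In retina, Rbp3, which carries retinoids between photoreceptors and the pigment epithelium, had no count in the 4 kidneys and 2733, 2559 and 2483 CPM in the retinas, at least 58201-fold higher in retina. Pdc, the vesicular glutamate transporter Slc17a7 and the calcium sensor Rcvrn were likewise without a count in kidney and at least 29178-fold, 22630-fold and 12531-fold higher in retina. Prph2 had 1 count over the kidneys and 273741 counts over the retinas. Among protein-coding genes at 10 TPM or more in every library of an organ, 72 of 3845 kidney genes and 160 of 8927 retina genes had at most 3 counts in all libraries of the other organ together, and 24 and 79 of them had none.

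Markers of the renal tubule were mostly higher in kidney. All 15 proximal tubule markers were called (median 11.84), and their summed level was 25676 to 31535 CPM in the kidneys and 21.8 to 26.4 CPM in the retinas. Because tissue and not single cells was sequenced, fewer cells of a type and less RNA per cell cannot be told apart here or below. Slc34a1, which takes up phosphate, had 5449, 5717, 4202 and 7948 CPM in the kidneys and 0.273, 0.233 and 0 CPM in the retinas (15.03 ± 0.78, adjusted p = 4.82e-07, edgeR). The endocytic receptors Lrp2 and Cubn (6.90 ± 0.34 and 7.96 ± 0.36), the glucose transporter Slc5a2 (11.66 ± 0.46) and the fatty acid transporter Slc27a2 (12.54 ± 0.29) were higher in kidney in the same way. Of the 15 markers Lrp2 had the highest CPM in the retinas, with 1337, 1769, 1622 and 889 CPM in the kidneys and 10.1, 13.8 and 11.2 CPM in the retinas.

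All 6 thick ascending limb markers (median 9.85, or 8.92 with the marker absent from retina set at its bound) and all 8 collecting duct principal cell markers (median 9.18) were higher in kidney. Slc12a1, the salt cotransporter of the thick ascending limb, had 466, 563, 887 and 286 CPM in the kidneys and 0.751, 0.734 and 0.604 CPM in the retinas. The water channel of the collecting duct, Aqp2, had 359, 214, 663 and 291 CPM in the kidneys and 0.546, 0.333 and 0.403 CPM in the retinas. K861 was the lowest for the thick ascending limb, with a summed level of 1151 CPM against 2812 to 5985 CPM in the other kidneys. All 7 intercalated cell markers were higher in kidney (median 9.36), with no retinal count for the transcription factor Foxi1 and the chloride/bicarbonate exchanger Slc4a1.

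The distal convoluted tubule and podocyte lists were less one-sided. Of 5 distal convoluted tubule markers 4 were called higher in kidney, and Klhl3 was not (0.48 ± 0.25, adjusted p = 0.109, edgeR). With log2(TPM + 1) the list had 3 higher and 1 lower in kidney, and Klhl3 stood at -1.20. The thiazide-sensitive cotransporter Slc12a3 had 608, 1136, 1266 and 602 CPM in the kidneys and 0.887, 1.13 and 0.906 CPM in the retinas, but the calcium-binding proteins Pvalb and Calb1 were also present in retina, where Calb1 had 64.1, 69.1 and 60.9 CPM, against 203, 729, 440 and 256 CPM in the kidneys. Of 10 podocyte markers 7 were called higher in kidney and 2 in retina, and library totals made that 4 and 4. The transcription factor Tcf21 was 8.02 ± 0.38 higher in kidney, whereas Magi2 and Ptpro, genes that neurons use too, were lower in kidney (-1.87 ± 0.18 and -1.56 ± 0.28).

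**Figure D2:**
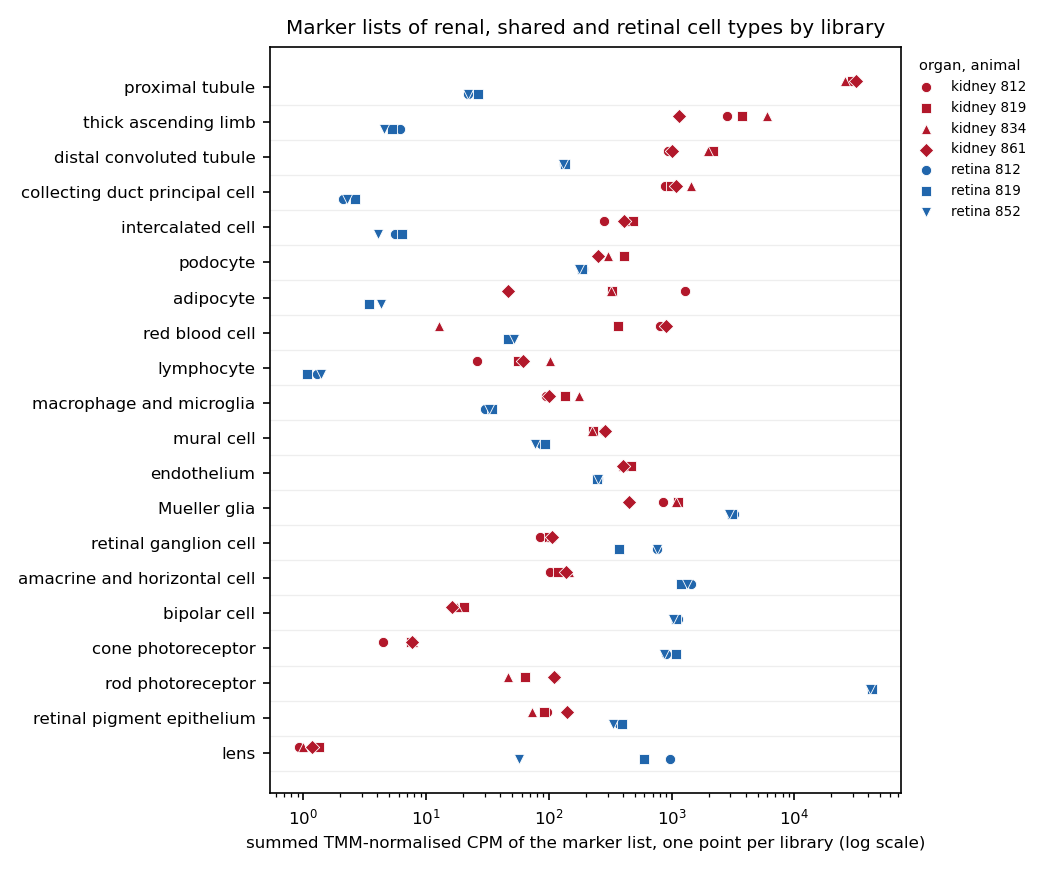
Summed TMM-normalised CPM of each marker list, 1 point per library, on a log scale, with kidney libraries (red) above retina libraries (blue) within each row. The proximal tubule list lies at 25676 to 31535 CPM in the kidneys and 21.8 to 26.4 CPM in the retinas, and the rod list at 46 to 113 CPM in the kidneys and 40900 to 42705 CPM in the retinas; the red blood cell list of K834 (12.8 CPM) lies below the retinas.

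All 14 rod and all 9 cone markers were lower in kidney (medians -11.39 and -9.66). The rod list summed to 46 to 113 CPM in the kidneys and 40900 to 42705 CPM in the retinas, and the cone list to 4.48 to 7.76 CPM in the kidneys and 859 to 1086 CPM in the retinas. Per length, the rod list summed to 32.6 TPM in kidney and 53315 TPM in retina. The catalytic subunit Pde6b of the rod phosphodiesterase had 0.0574, 0.388, 0.0547 and 0.0735 CPM in the kidneys and 1487, 1442 and 1364 CPM in the retinas. The short-wavelength cone opsin Opn1sw had 0.0574, 0.166, 0.0547 and 0.221 CPM in the kidneys and 323, 349 and 287 CPM in the retinas.

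Among the rod markers Reep6, which shapes the endoplasmic reticulum and is also expressed in epithelia, was the one with the highest kidney level, at 95.2, 49.6, 33.5 and 80.5 CPM in the kidneys and 829, 796 and 799 CPM in the retinas (-3.64 ± 0.34, adjusted p = 1.77e-05, edgeR). Pde6a, the other catalytic subunit, reached 7.69 and 14.8 CPM in K812 and K861 and 1.83 and 0.711 CPM in K819 and K834, against 1481, 1487 and 1356 CPM in the retinas. The kidneys with the higher levels of Reep6 and Pde6a were those of the male animals. All 15 genes of phototransduction and the visual cycle were lower in kidney (median -11.95, or -9.76 with the 3 genes absent from kidney set at their bounds).

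Markers of the inner retina were lower in kidney apart from a single gene in each of 2 lists. All 9 bipolar cell markers (median -11.17, or -9.90 with the 4 genes absent from kidney at their bounds) were lower in kidney, among them the homeobox gene Vsx1, which had no kidney count and 26.5, 24.3 and 21.6 CPM in the retinas. Of 14 amacrine and horizontal cell markers 13 were lower in kidney, among them Gad1 (-8.18 ± 0.26), which makes the inhibitory transmitter GABA, and Lhx1, which the developing and adult kidney also uses, was higher in kidney (2.33 ± 0.27, adjusted p = 6.95e-05, edgeR). Of 10 ganglion cell markers 9 were lower in kidney, and the RNA-binding protein Rbpms was higher, with 74.2, 84.4, 88.3 and 87.3 CPM in the kidneys and 24, 10.5 and 21.6 CPM in the retinas (2.16 ± 0.27, adjusted p = 9.68e-05, edgeR). R819 was low across the ganglion cell list, with a sum of 375 CPM against 763 and 762 CPM in R812 and R852.

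Synaptic genes were lower in kidney too. All 14 genes of the synapse list were lower in kidney (median -6.97), with Snap25, the SNARE of synaptic vesicle fusion, at 3 counts over the kidneys and 1122, 916 and 1051 CPM in the retinas. Of 8 Mueller glia markers 6 were lower in kidney and none higher. All 8 were lower with library totals and with log2(TPM + 1), and 7 without K861. Rlbp1, which binds retinaldehyde, had 2 counts over the kidneys and 384, 348 and 342 CPM in the retinas. Several others were far from absent in kidney: Glul, the glutamine synthetase, had 552, 696, 720 and 287 CPM in the kidneys and 1572, 1542 and 1455 CPM in the retinas, and the water channel Aqp4 (-1.44 ± 0.58, adjusted p = 0.0502, edgeR) and the potassium channel Kcnj10 (-0.15 ± 0.30, adjusted p = 0.665) were not called.

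Markers of tissue next to the retina were found in its libraries, and markers of tissue around the kidney in the kidney libraries. Of 10 pigment epithelium markers 9 were lower in kidney, and the isomerase Rpe65 had no kidney count and 32.8, 27.8 and 28.1 CPM in the retinas. Lens crystallins varied within retina: the lens list summed to 0.918 to 1.33 CPM in the kidneys, against 963 CPM in R812, 57.3 CPM in R852 and a value between these in R819. Adipocyte markers summed to 1273, 324, 319 and 46.7 CPM in the kidneys and to 3.4 to 4.3 CPM in the retinas, and Ucp1, the uncoupling protein of brown fat, had 574, 2.16, 35.6 and 3.97 CPM in the kidneys and 0.239, 0.3 and 0.168 CPM in the retinas. Of 3 adrenal cortex markers tested, 1 was higher and 2 were lower in kidney. The part of these tissues in the organ difference of other genes was not tested.

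Haemoglobin also differed between libraries of the same organ. The red blood cell list summed to 12.8 CPM in K834 and 365 to 891 CPM in the other kidneys, against 46.1 to 51.7 CPM in the retinas. All 5 of its genes were called higher in kidney, but 3 without K861, 2 with library totals and 0 with animal as a random block. The random block was fitted with limma, so the method changed with it. Of 10 markers of macrophages and microglia 9 were higher in kidney, and P2ry12, which marks microglia, was lower there, with 0.344, 0.554, 0.492 and 0 CPM in the kidneys and 2.73, 2.4 and 2.25 CPM in the retinas (-2.75 ± 0.57, adjusted p = 0.00199, edgeR). With log2(TPM + 1) the list was split 3 to 3. The 7 lymphocyte markers tested were all called higher in kidney, and so were the 4 that still passed the filter without K861. The list summed to 26.2 to 103 CPM in the kidneys and 1.07 to 1.38 CPM in the retinas. Its markers thus passed the filter mainly through kidney, which fixed the direction of such calls in advance.

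Vessel markers differed by gene between the organs, and in whole tissue a difference in either direction cannot be assigned to vessels. Of 10 endothelial markers 7 were called higher in kidney, 1 higher in retina and 2 in neither direction, and log2(TPM + 1) made that 5 and 4. Without K861 the counts were 7 and 3. Of 8 mural cell markers 7 were higher in kidney, or 4 with 1 lower with log2(TPM + 1). Plvap, which forms the diaphragms of fenestrated capillaries, had 111, 138, 131 and 110 CPM in the kidneys and 6.55, 8.17 and 7.99 CPM in the retinas (4.01 ± 0.16, adjusted p = 1.19e-07, edgeR). Kdr, a receptor of vascular endothelial growth factor, had 49.1, 42.6, 27.7 and 34.9 CPM in the kidneys and 106, 114 and 112 CPM in the retinas (-1.52 ± 0.18, adjusted p = 8.68e-05). Of 8 markers of the blood-retina barrier 4 were higher and 3 lower in kidney, or 3 and 4 with library totals. The glucose transporter Slc2a1 and the organic anion transporters Slco1a4 and Slco1c1 were lower in kidney (-1.66 ± 0.22, -2.71 ± 0.41 and -5.90 ± 0.32). Mfsd2a, Lsr and Ocln of the same list, which epithelia express too, were higher in kidney by 4.24 ± 0.51, 3.30 ± 0.22 and 2.28 ± 0.31.

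Genes of glucose synthesis were higher in kidney and most genes of glucose breakdown were higher in retina. All 6 gluconeogenesis genes were called for kidney (median 12.65), among them Pck1, the enzyme that commits carbon to glucose, with 2588, 2886, 4985 and 1671 CPM in the kidneys and 0.239, 0.233 and 0.168 CPM in the retinas (13.76 ± 0.62, adjusted p = 2.32e-07, edgeR). G6pc, which releases free glucose, had 19387 counts over the kidneys and 3 over the retinas. Of 18 glycolysis genes 4 were higher in kidney and 12 in retina (median -0.77), or 2 and 16 with library totals. Hk1 (-2.56 ± 0.26), Pfkp (-3.38 ± 0.30), Eno2 (-7.21 ± 0.23) and Pkm (-2.69 ± 0.26) were lower in kidney. The kidney-higher calls of Gapdh (0.42 ± 0.16, adjusted p = 0.0415) and Tpi1 (0.48 ± 0.15, adjusted p = 0.019) turned to -0.54 and -0.47 with library totals. That of Gapdh was lost with the animal as a factor (adjusted p = 0.0981).

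Fatty acid oxidation and peroxisomes were on the kidney side. All 13 genes of fatty acid oxidation were higher in kidney (median 2.83), with Acadl, the long-chain dehydrogenase, at 477, 307, 352 and 277 CPM in the kidneys and 12.3, 11.7 and 9.57 CPM in the retinas. With library totals 11 of the 13 held the call and with log2(TPM + 1) 5 were higher and 2 lower. All 9 peroxisomal genes were higher in kidney (median 7.13), among them catalase (Cat, 5.54 ± 0.18) and D-amino acid oxidase (Dao, 11.23 ± 0.39).

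In 22 pairs of related genes the share of TPM held by the first member was higher in every kidney than in any retina. The pairs were chosen as contrasts of epithelium and neuron with earlier results of these data known, so the count is a description of these pairs alone. This share does not depend on how libraries are scaled. Ldhb, the lactate dehydrogenase chain of oxidative tissues, took 74 to 84.6% of Ldhb and Ldha in the kidneys and 22.3 to 24.9% in the retinas. Pklr, the liver type of pyruvate kinase, remained the minor form in both organs, with 7.2 to 16.7% of Pklr and Pkm in the kidneys and 0 to 0.0277% in the retinas.

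Shares of the proton pump and fusion genes were also apart. Atp6v1b1, a proton pump subunit of intercalated cells, took 32.7 to 52.3% of Atp6v1b1 and Atp6v1b2 in the kidneys and 0.0875 to 0.233% in the retinas. Atp6v1b1 itself was higher in kidney (9.36 ± 0.36), whereas Atp6v1b2 was not called (-0.18 ± 0.17, adjusted p = 0.365, edgeR). The ubiquitous SNARE Snap23 took 99.7 to 100% of Snap23 and Snap25 in the kidneys and 1.32 to 2.03% in the retinas. In some pairs the same gene was the major one in both organs: Eno1 took 99.7 to 99.8% of Eno1 and Eno2 in the kidneys and 82.6 to 85% in the retinas, and Camk2g took 97.2 to 98.6% of Camk2g and Camk2a in the kidneys and 80.6 to 82.1% in the retinas.

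**Figure D3:**
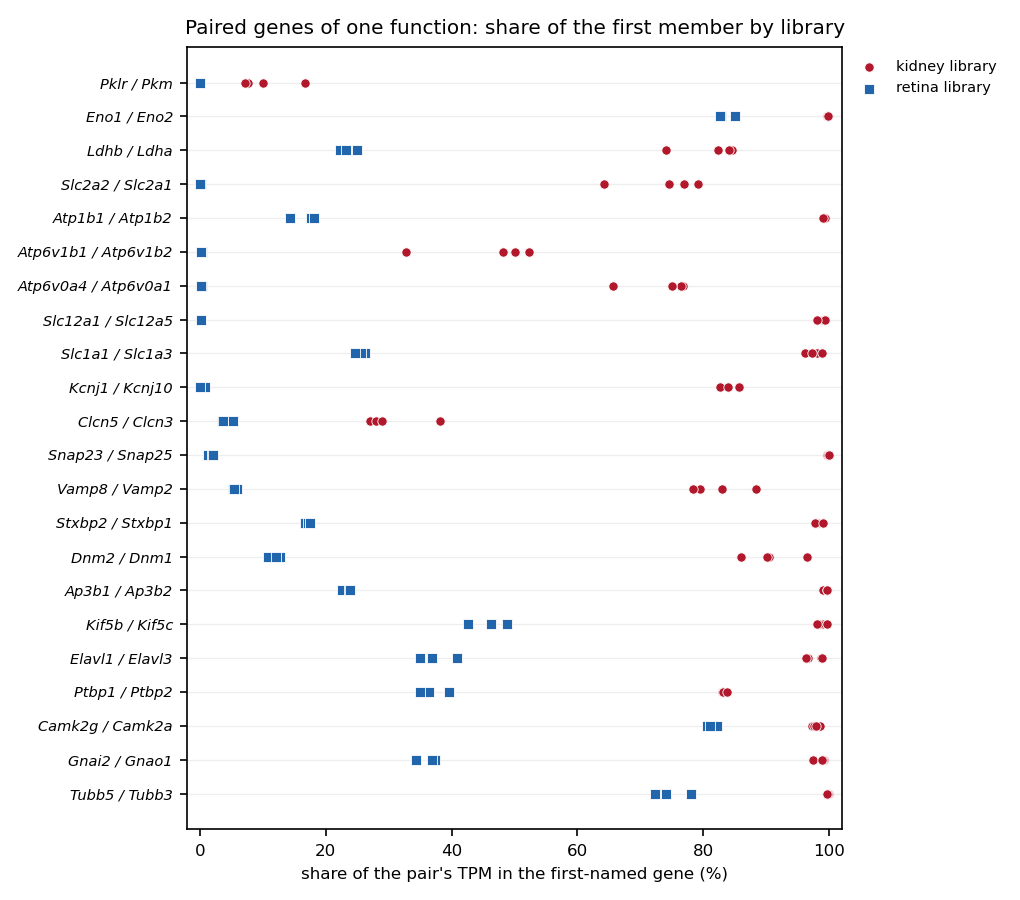
Share (%) of the summed TPM of a pair that was held by the first-named gene, 1 point per library, with kidney libraries as red circles and retina libraries as blue squares. In all 22 pairs every kidney lies right of every retina; Ldhb lies at 74 to 84.6% in the kidneys and 22.3 to 24.9% in the retinas.

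Solute transporters and drug-metabolising enzymes were mostly higher in kidney. Of 23 tested members of the organic ion transporter families Slc22 and Slc47, 19 were higher in kidney and 2 in retina, with Slc22a12, the urate transporter, at 398 TPM in kidney and 0.291 TPM in retina. Of 31 members of the amino acid and amine transporter families 13 were higher in kidney and 16 in retina: Slc3a1 and Slc7a9, which together carry cystine, were higher by 8.15 ± 0.32 and 13.07 ± 0.55, and the taurine transporter Slc6a6, with 242, 201, 249 and 135 CPM in the kidneys and 1072, 1005 and 909 CPM in the retinas, was lower (-2.27 ± 0.22). Of 46 cytochrome P450 genes 34 were higher in kidney and 6 in retina, and all 14 UDP-glucuronosyltransferases tested were higher in kidney. Of these 14, 7 had no retinal count and passed the filter through kidney alone, so their direction was fixed in advance. The split of higher and lower in kidney was 17 and 0 of 20 for glutathione S-transferases, 8 and 2 of 11 for family Slc5, 9 and 2 of 12 for acyl-CoA synthetases and 7 and 2 of 10 for aquaporins. It was 5 and 5 of 12 for keratins, whose median of 0.60 turned to -0.33 with library totals. With log2(TPM + 1) the split was 8 and 20 for the amino acid and amine transporters, 27 and 11 for cytochrome P450 genes, 5 and 3 for acyl-CoA synthetases, 2 and 6 for keratins and 10 and 3 for claudins. Of 14 claudins, the proteins of tight junctions, 12 were higher in kidney, among them Cldn2 (7.17 ± 0.47) and Cldn10 (7.35 ± 0.42) of the proximal tubule and thick limb.

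Ion channels and receptors of neurons were mostly lower in kidney. All 24 voltage-gated calcium channel genes were lower in kidney (median -5.09), led by Cacna1f, the channel of photoreceptor terminals, with 0.344, 0.333, 0.273 and 0.147 CPM in the kidneys and 289, 311 and 311 CPM in the retinas. Of 78 potassium channel genes 13 were higher in kidney and 54 in retina. Kcnj16 of the tubule had 516, 557, 623 and 442 CPM in the kidneys and 0.273, 0.233 and 0.638 CPM in the retinas. Of 27 glutamate receptor genes 24 were lower in kidney and 3 were not called, among them Gria3, with 32.9, 30.9, 28.7 and 45.8 CPM in the kidneys and 38.8, 31.2 and 40.5 CPM in the retinas. Of 66 protocadherin genes, which label neuronal surfaces, 62 were lower in kidney and 3 higher. The split of higher and lower in kidney was 1 and 11 of 12 for voltage-gated sodium channels, 1 and 21 of 22 for GABA and glycine receptors and 2 and 14 of 16 for synaptotagmins.

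**Figure D4:**
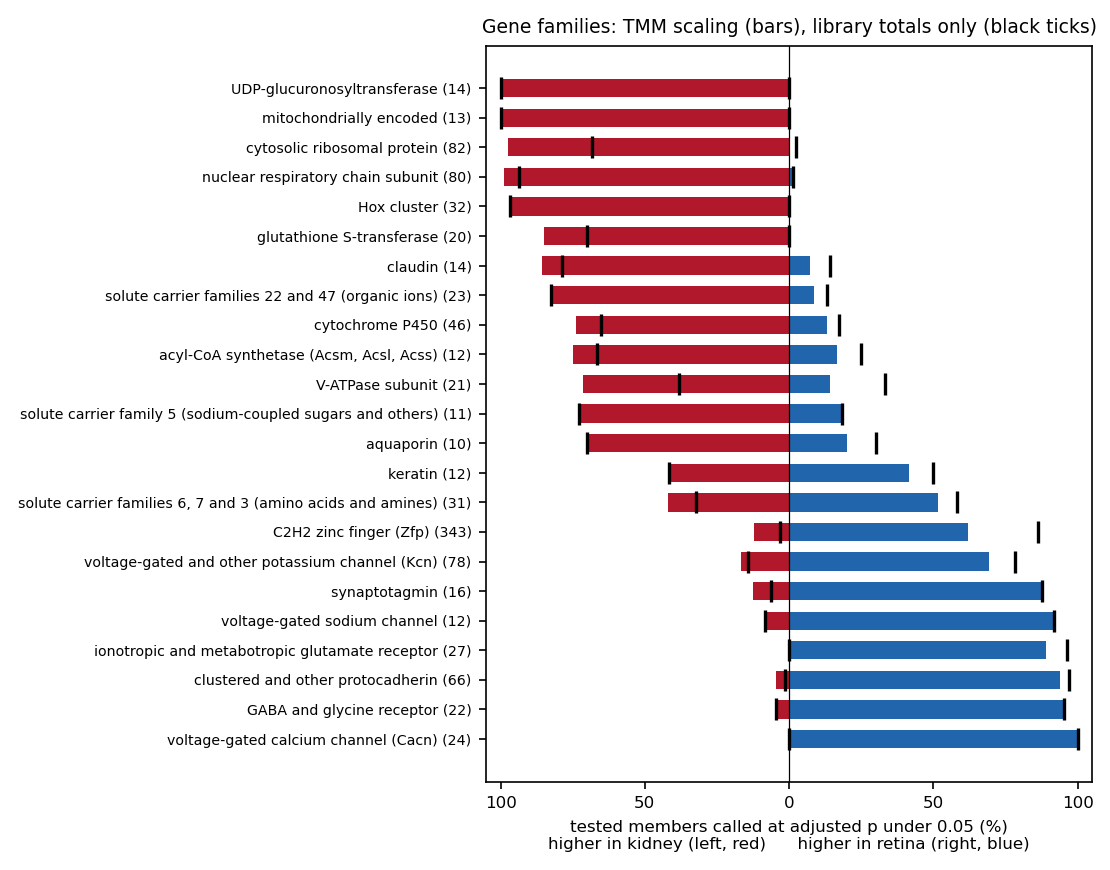
Percentage of the tested members of each gene family (number in brackets) called higher in kidney (red, left) or higher in retina (blue, right) at adjusted p under 0.05 with TMM scaling; black ticks give the same with library totals. With log2(TPM + 1), which is not drawn, the ribosomal protein genes had 11 higher and 21 lower in kidney in place of 80 and 0, and the V-ATPase subunits 7 and 13 in place of 15 and 3; the keratin median changed sign with library totals.

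Families of general cell machinery depended on the scaling, as did the counts over all genes. Of 82 cytosolic ribosomal protein genes 80 were higher in kidney (median 1.62) with TMM, 56 were higher and 2 lower with library totals (median 0.67), and 11 were higher and 21 lower with log2(TPM + 1) (median -0.09). Of 21 V-ATPase subunits 15 were higher and 3 lower in kidney with TMM, 8 and 7 with library totals, and 7 and 13 with log2(TPM + 1). Of 343 C2H2 zinc finger genes 42 were higher and 213 lower in kidney with TMM, 11 and 296 with library totals, and 3 and 324 with log2(TPM + 1). Of 80 nuclear genes of the respiratory chain 79 were higher and 1 lower in kidney with TMM (median 2.50), 75 and 1 with library totals, and 58 and 2 with log2(TPM + 1), where 20 were not called. Cox4i2, an isoform induced by low oxygen, was lower in kidney (-3.73 ± 0.18). All 13 mitochondrially encoded protein genes were higher in kidney under each of these scalings, although reads of some of them, such as mt-Atp6 (0.5% of its 31-base stretches its own), could not be told from nuclear copies. Of 15 genes often used as references 10 were higher in kidney and 4 lower, and log2(TPM + 1) made that 2 and 8.

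All 13 retinal factors were lower in kidney (median -11.71, or -11.49 with the 4 absent from kidney at their bounds). Crx, the homeobox factor of photoreceptors, had 0.344, 0.111, 0.383 and 0.147 CPM in the kidneys and 883, 873 and 789 CPM in the retinas. Of 12 renal factors 11 were higher in kidney: Hnf4a, a nuclear receptor of the proximal tubule, had 691, 611, 581 and 494 CPM in the kidneys and 0.546, 0.333 and 0.269 CPM in the retinas. Esrrg was lower in kidney (-0.63 ± 0.17, adjusted p = 0.00979, edgeR), with 45.3, 42.2, 46.4 and 27.9 CPM in the kidneys and 66, 64.7 and 57.6 CPM in the retinas.

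The Hox genes, which record position along the trunk, were near 0 in retina, an organ of the head. Of 39 Hox genes 32 were tested and 31 were called higher in kidney (median 9.37, or 9.02 with the 14 absent from retina at their bounds). The family summed to 1.6 to 2.18 CPM in the retinas. Its genes thus passed the filter mainly through kidney, which fixed the direction of such calls in advance. At 1 TPM or more on average there were 27 in kidney and 0 in retina. Hoxd8, the highest, had 95.5, 131, 161 and 80.3 CPM in the kidneys and not a count in the retinas.

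Promoters of some genes of the rod and proximal tubule lists are printed because they hold short motifs of transcription factors. Each line gives 300 bases of GRCm38.p6 from RefSeq, 250 before and 50 after an annotated start of the gene, 5′ to 3′ on the strand of the gene. Of the starts of a gene, the first whose window held a match was taken. Those of Slc34a1 and Miox lie inside the gene spans of GENCODE M21, which begin at 55398187 and 89334398. Capitals mark TAATCC, the core bound by CRX, or GTTAAT, a homeodomain motif, or CAAAGTC, the core of the HNF4 site, on either strand. Sag and Cngb1 are the arrestin and the channel beta subunit of rods, and Slc34a1 and Miox are proximal tubule genes. Sag lies at chr1:87803430-87803729 on the plus strand, Cngb1 at chr8:95306536-95306835 on the minus strand, Slc34a1 at chr13:55399398-55399697 on the plus strand and Miox at chr15:89334223-89334522 on the plus strand.
Sag: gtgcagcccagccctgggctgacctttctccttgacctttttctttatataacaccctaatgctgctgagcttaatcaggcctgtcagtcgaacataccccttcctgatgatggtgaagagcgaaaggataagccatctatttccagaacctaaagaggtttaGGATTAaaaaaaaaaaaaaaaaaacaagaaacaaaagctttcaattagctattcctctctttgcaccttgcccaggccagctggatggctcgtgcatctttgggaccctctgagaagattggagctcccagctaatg
Cngb1: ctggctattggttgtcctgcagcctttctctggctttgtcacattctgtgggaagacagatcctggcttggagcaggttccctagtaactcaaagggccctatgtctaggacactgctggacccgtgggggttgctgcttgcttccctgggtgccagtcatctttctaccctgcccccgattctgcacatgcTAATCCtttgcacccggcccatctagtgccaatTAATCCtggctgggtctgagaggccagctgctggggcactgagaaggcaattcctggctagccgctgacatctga
Slc34a1: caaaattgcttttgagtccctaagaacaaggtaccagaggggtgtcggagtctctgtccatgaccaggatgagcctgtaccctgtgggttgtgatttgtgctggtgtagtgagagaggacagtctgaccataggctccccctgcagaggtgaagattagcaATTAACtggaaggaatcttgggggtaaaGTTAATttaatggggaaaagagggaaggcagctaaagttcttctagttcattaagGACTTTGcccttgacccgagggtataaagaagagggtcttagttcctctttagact
Miox: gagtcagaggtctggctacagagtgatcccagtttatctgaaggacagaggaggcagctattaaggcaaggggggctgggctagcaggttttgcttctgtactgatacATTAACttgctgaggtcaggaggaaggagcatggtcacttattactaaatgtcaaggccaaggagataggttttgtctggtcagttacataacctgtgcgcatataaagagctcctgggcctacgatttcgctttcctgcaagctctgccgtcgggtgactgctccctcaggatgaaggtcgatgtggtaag

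Matches began 87 bases before the start in Sag, 58 and 25 bases before it in Cngb1, 89 and 61 (GTTAAT) and 6 (CAAAGTC) bases before it in Slc34a1 and 142 bases before it in Miox. In the lists these genes came from, TAATCC was in 3 of 8 rod promoters and GTTAAT in 5 of 12 proximal tubule promoters. TAATCC was found in 11 of 187 promoters (5.88%) of the 200 genes with the largest folds in kidney, in 41 of 222 (18.5%) of the 200 with the largest folds in retina, and in 7.06% of all 32851 promoters. GTTAAT was found in 38 (20.3%) of the kidney promoters, 11 (4.95%) of the retina promoters and 7.1% of all. CAAAGTC was found in 20 (10.7%) of the kidney promoters, 10 (4.5%) of the retina promoters and 4.44% of all. Among promoters of the protein-coding genes tested, 5.94% held TAATCC, 5.19% GTTAAT and 3.96% CAAAGTC. The bases G and C made up a median of 50% of the kidney promoters, 56% of the retina promoters and 59.7% of those of the tested genes. The part of base composition in these shares was not tested. Promoters were in the table for 156 of the 200 kidney genes and 153 of the 200 retina genes, the end of GTTAAT can also be the beginning of TAATCC, and a match is a run of letters and not a binding site.

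Splicing factors also divided. All 15 neural splicing factors were lower in kidney (median -6.33), among them Srrm4, which includes neuronal microexons, with 0.229, 0.776, 0.492 and 0.441 CPM in the kidneys and 69.9, 73.5 and 71.6 CPM in the retinas, and Msi1 (-7.81 ± 0.53). Of 10 epithelial or broadly expressed factors 5 were higher in kidney, with Esrp2 and Rbm47 at 8.52 ± 0.30 and 7.45 ± 0.35, and 5 were lower, or 3 and 6 with log2(TPM + 1). Ptbp1, which represses neuronal exons, had 142, 146, 136 and 137 CPM in the kidneys and 64.2, 64.9 and 63.8 CPM in the retinas (1.12 ± 0.10), a difference that was 0.18 and not called with library totals and -0.60 with log2(TPM + 1). As a share it took 83 to 83.8% of Ptbp1 and Ptbp2 in the kidneys and 35 to 39.6% in the retinas.

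The count and the TPM of a gene in a library together give the mean length of the transcripts its reads were assigned to, and this length differed between the organs for part of the genes. For 511 single-transcript genes of 2000 bases or more, which also set the scale in bases, 98.7% of the lengths came within 10% of the annotated one. Of 10377 genes with 50 counts in every library, 145 (1.4%) were at least 0.5 longer in kidney on the log2 scale and 382 (3.68%) at least 0.5 longer in retina, at adjusted p under 0.05 (limma). None of the 870 genes with a single annotated transcript was called, against 527 of 9507 (5.54%) with more, or 5.08% of all 10377. A gene with 1 transcript has nearly the same length in every library by construction, so that absence of calls is no check of the others. With animal as a factor 0 and 0 were called, in a fit that left 1 residual degree of freedom, and 126 and 326 passed at an unadjusted p under 0.05.

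Supt16, a histone chaperone subunit at chr14:52160414-52197416 on the minus strand, had the largest gain of length in kidney, with 4020, 4590, 3724 and 3889 bases in the kidneys and 1195, 1165 and 1338 bases in the retinas (1.74 ± 0.08, adjusted p = 9.51e-05, limma). Its CPM was lower in kidney (-2.25 ± 0.22), and the level by TPM, 4.99 in kidney and 250 in retina, differed by more. Ivd, an enzyme of leucine breakdown, averaged 2731 ± 93 bases in kidney and 1251 ± 122 bases in retina, and its kidney-higher count (2.37 ± 0.15) turned to -0.50 with log2(TPM + 1). Med22, a Mediator subunit, averaged 3285 ± 106 bases in kidney and 1706 ± 14 bases in retina.

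In the other direction Dnajc15, a mitochondrial chaperone, had 776, 729, 676 and 552 bases in the kidneys and 3159, 2810 and 3016 bases in the retinas (-2.12 ± 0.11, adjusted p = 0.000135, limma). Chd9, a chromatin remodeller, averaged 667 ± 38 bases in kidney and 2435 ± 91 bases in retina, and Ube3a, a ubiquitin ligase, 2688 ± 964 bases in kidney and 7903 ± 71 bases in retina. Sugt1, Mkln1 and Reep5 were 3 more genes of this kind, at 0.306, 0.304 and 0.299 of their retinal length in kidney. Rnf130 had 5652 ± 616 bases in retina, more than the 1502 bases of its longest transcript in the annotation used here, so the transcripts behind these lengths are not named.

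**Figure D5:**
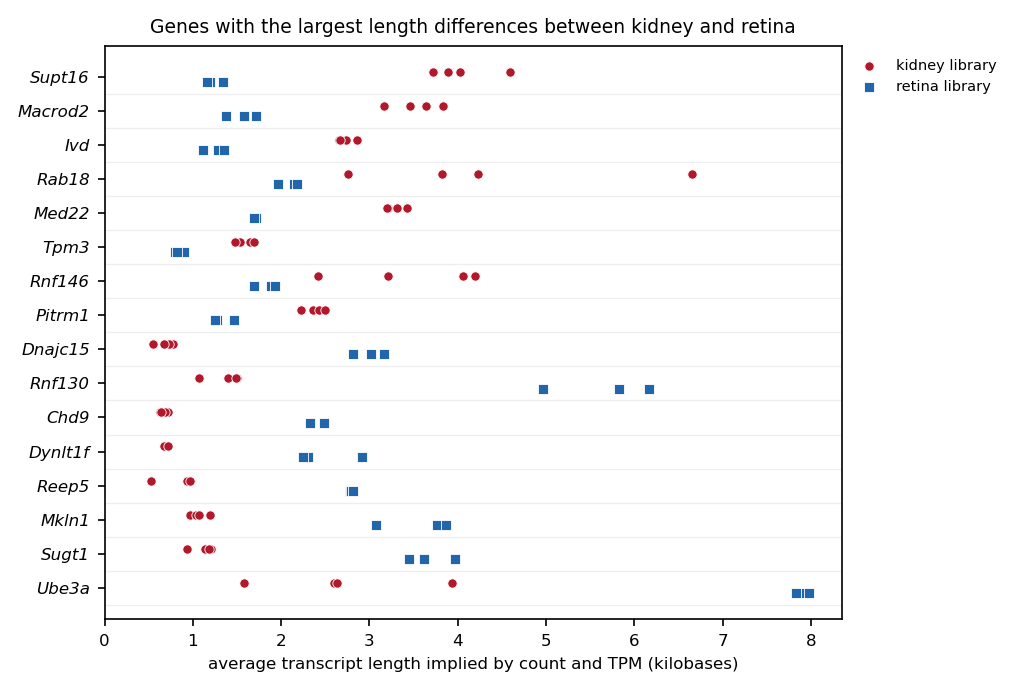
Average transcript length in kilobases implied by count and TPM, 1 point per library, for the 8 genes with the largest difference in each direction among those with 200 counts in every library; kidney libraries are red circles and retina libraries blue squares. The organs do not overlap in any of the 16 genes; Supt16 lies at 3724 to 4590 bases in the kidneys and 1165 to 1338 bases in the retinas.

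The gene that was deleted elsewhere in the series, Camk2d (chr3:126596302-126846326, plus strand), was lower in kidney. It had 19, 19.2, 21 and 13.5 CPM in the kidneys and 229, 208 and 195 CPM in the retinas (-3.53 ± 0.17, adjusted p = 3.1e-07, edgeR). All 4 subunit genes of the kinase were lower in kidney, with Camk2a at -4.76 ± 0.22, Camk2b at -7.58 ± 0.42 and Camk2g at -1.38 ± 0.12. By TPM the order of the means was Camk2g 7.65, Camk2d 3.67, Camk2a 0.171 and Camk2b 0.127 in kidney and Camk2d 136, Camk2b 72.5, Camk2g 70.2 and Camk2a 16.2 in retina. In single kidneys Camk2b had 0.336, 0.0688, 0.0516 and 0.0521 TPM and Camk2a 0.116, 0.243, 0.184 and 0.141 TPM, so that Camk2b was above Camk2a in K812 and below it in the other kidneys. Camk2g exceeded Camk2d in every kidney, Camk2d exceeded every other subunit in every retina, and Camk2b and Camk2g overlapped in retina, at 74.7, 68.3 and 74.5 TPM and 69.5, 65.6 and 75.4 TPM. Calm2 and Calm3, which encode the calmodulin that activates the kinase, were also lower in kidney, with Calm2 at -0.86 ± 0.20 and Calm3 at -0.53 ± 0.13, the last not called with animal as a factor (adjusted p = 0.0664).

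Lepr, the leptin receptor gene that is mutated in the diabetic mice of the series and intact here, was higher in kidney by CPM, with 2.87, 3.44, 5.14 and 2.13 CPM in the kidneys and 0.375, 0.2 and 0.503 CPM in the retinas (3.22 ± 0.44, adjusted p = 0.000175, edgeR). Its level was low in both organs, with 1.01, 0.576, 1.17 and 0.191 TPM in the kidneys and 0.249, 0.129 and 0.575 TPM in the retinas. By TPM the organs overlapped, and log2(TPM + 1) did not call the gene.

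The 2 animals that gave both organs differed in sex, and the genes that differed between them in both organs were led by sex-linked ones. Xist had 0.861 and 606 CPM in K812 and K819 and 1.37 and 1175 CPM in R812 and R819. Outside the sex chromosomes Oxtr, the oxytocin receptor, had 0.402 and 3.71 CPM in K812 and K819 and 0.853 and 5.47 CPM in R812 and R819. Over 7534 genes with 10 CPM or more in both organs, the log2 difference of K812 minus K819 was related to that of R812 minus R819 with Pearson's r of 0.283 and Spearman's rho of 0.073, a description across genes of 4 libraries.

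Several of the most kidney-restricted genes split the kidneys by sex. Slco1a1, an organic anion transporter, had 328, 0.333, 0.601 and 330 CPM in K812, K819, K834 and K861 and no count in the retinas. Slc7a13, a transporter of acidic amino acids, had 873, 2.33, 1.37 and 781 CPM in the same kidneys and 0.0671 to 0.167 CPM in the retinas. Akr1c18, a steroid dehydrogenase, went the other way, with 3.33, 360, 258 and 1.62 CPM in the kidneys and 0.102, 0.0333 and 0.0671 CPM in the retinas, and so did Ugt1a2, with 33.2, 1724, 1421 and 6.84 CPM in the kidneys and no count in the retinas. With 2 males and 2 females no test of sex was made, and the organ calls of Slco1a1, Slc7a13, Akr1c18 and Ugt1a2 were lost with animal as a random block (adjusted p = 0.232, 0.34, 0.223 and 0.118, limma). That fit also replaced edgeR with limma, and the parts of block and method were not separated.

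Kidney libraries varied more among themselves than retina libraries. Over the 7534 genes the median coefficient of variation of CPM was 14.6% across the 4 kidneys and 5.07% across the 3 retinas, and it was 8.95% across the kidneys without K861. The coefficient was larger in kidney for 6840 of these genes (90.8%).

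The same organs of Camk2d knockout mice that were not diabetic gave 4 kidney and 4 retina libraries from other animals, and 16362 of 19804 genes (82.6%) were called there, 7742 (39.1%) higher in kidney and 8620 (43.5%) higher in retina. Beyond 2-fold there were 10443 (52.7%), 5082 (25.7%) higher in kidney and 5361 (27.1%) higher in retina. Camk2d had 0.21 to 0.511 CPM in the knockout kidneys and 2.23 to 3.06 CPM in the knockout retinas. Of 19503 genes tested in both genotypes, 9064 were beyond 2-fold in the same direction, which is 88.3% of the 10263 knockout and 95.8% of the 9458 wild-type calls, and 0 were beyond 2-fold in opposite directions. At adjusted p under 0.05 alone, 8 genes were called in opposite directions, namely Anxa1, Crym, Gm38069, H2-K2, Itgae, Plcl2, Stbd1 and Stc1. Camk2d itself differed by -3.0 ± 0.28 in knockout and by -3.53 ± 0.17 in wild-type mice. The difference between the genotypes was not tested.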

How the data were processed

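Messenger RNA was sequenced from 4 kidneys and 3 retinas of wild-type, non-diabetic mice. The authors deposited 1 table per library with estimated counts and TPM for 55385 gene identifiers. Per the submitters' processing notes, the processing named Trim Galore 0.6.4, kallisto 0.4.6 and GRCm38.p6; which transcript set was used is not given in the sources used here. Estimated counts as deposited by the authors (35.3% not whole) were rounded to whole numbers, and the deposited TPM values, which are relative to each library's total, were used as they stood. Gene names came from GENCODE M21, in which 241 identifiers had no match.

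Counts were tested with edgeR 4.0.16 (R 4.3.3) by its quasi-likelihood test with TMM scaling and filterByExpr, and against a minimum of 2-fold, with Benjamini-Hochberg adjustment over all genes tested. Transcript length was tested with limma 3.58.1 on the log2 ratio of count and TPM, centred on each library's median, for genes with at least 50 counts in every library. DESeq2 1.42.0, other scalings, limma on log2(TPM + 1) and log2(TPM + 0.1), a length offset, all 30 libraries, an animal block, a sex term and leaving out each library were alternatives. The fits were tested on simulated data. Tables and figures used Python 3.11.15.

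Groups came from the labels. Nothing says whether animals were littermates, and p-values measure the spread between these libraries. K812 with R812 and K819 with R819 are pairs because the numbers name the same animals; deviations from the group means correlated at 0.218 and 0.275 within animals. Depth was 20238712 to 22361357 counts per library, and a floor is 3 counts over a group. A single gene compared by exact permutation of 4 against 3 libraries could not go below p = 0.0571. The members and gene lists were chosen with earlier results of these data known. Genes named were the CaMKII genes and Lepr, the 12 of highest TPM and 10 of largest fold per organ, the leading, shared and opposite members of each list, pairs, family leaders, the 8 largest length differences per direction and the 8 largest differences between the 2 animals that gave both organs. Others, such as Pde6a, Cldn2, Vsx1 and the genes opposite in the knockout, were chosen after their values were seen. Results on some genes are not reported here.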

Additional observations from a re-analysis of the deposited data

Results flagged for a closer look

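In the 4 kidneys, 167 values (list sums and named genes) were examined for a library far from the others, and 14 were found. A chance rate of about 1 in 20 holds for independent values chosen beforehand. Here sums were examined with their own members, some genes were chosen after their values were seen, and some counts were near 0. The 14 can therefore not be set against that rate. K812 was low for the cone list (4.48 CPM) and Foxi1 (23.2 CPM) and high for Camk2b (1.32 CPM), Dnajc15 (53.8 CPM) and Ucp1 (574 CPM). K861 was low for Cldn2 (164 CPM), Med22 (21.6 CPM), Rbm47 (190 CPM) and Rnf130 (37.5 CPM) and high for Mkln1 (92.4 CPM), Sag (3.53 CPM) and mt-Atp6 (83019 CPM). K819 was high for Pde6b (0.388 CPM) and Prph2 (0.0554 CPM), which is a single read for Prph2. The retinas, with 3 libraries, were not examined in this way.

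For 6 genes the organs were separated in opposite directions in wild-type and knockout mice, each without overlap between the organs, and the difference between the genotypes was not tested. The log2 difference of kidney minus retina in knockout and in wild-type mice was 1.23 and -0.51 for Crym, -1.92 and 0.92 for Gm38069, -0.81 and 2.66 for H2-K2, 1.22 and -2.40 for Itgae, 0.49 and -1.64 for Plcl2 and -1.35 and 1.57 for Stbd1. The wild-type value of Gm38069 was -0.06 with library totals and -0.55 with log2(TPM + 1), and that of Stbd1 was -0.07 with log2(TPM + 1). Crym had 50.9 to 77.9 CPM in knockout kidneys and 22.1 to 32.4 CPM in knockout retinas, and 16.1 to 24.6 CPM in wild-type kidneys and 25.8 to 34.2 CPM in wild-type retinas. H2-K2, a histocompatibility gene that differs between mouse strains, had 6.22 to 9.16 CPM in knockout kidneys and 12.1 to 14.8 CPM in knockout retinas, and 8.97 to 18.4 CPM in wild-type kidneys and 1.88 to 2.07 CPM in wild-type retinas.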

How the results depend on the processing

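The number of genes higher in kidney was 4485 with library totals, 2859 with log2(TPM + 1) and 2885 with log2(TPM + 0.1), and that of genes higher in retina 11911, 14580 and 14529. Beyond 2-fold these were 3072, 1266 and 1777 for kidney and 8463, 8565 and 10643 for retina. Under every other alternative run the counts stayed within 1.5 times. Leaving out 1 library gave 7005 to 7562 genes higher in kidney and 7272 to 8445 in retina, and beyond 2-fold 4692 to 4909 and 4641 to 5103. With the animal block as a factor there were 6761 and 6931 (beyond 2-fold 4551 and 4371), and as a random block 7383 and 8260 (4402 and 4595). Length calls longer in kidney were 85 at 200 counts, and at a log2 difference of 1 they were 18 in kidney and 78 in retina. With the animal block as a factor they were 0 and 0. Leaving out 1 library gave 127 to 171 longer in kidney and 293 to 435 longer in retina.

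Of 2634 values for the 132 genes named, 34 changed sign, in 16 genes. A value was counted where either fit called the gene. Ldha (0.00 ± 0.20) and Klhl3 (0.48 ± 0.25), not called by edgeR with TMM, are therefore included. With library totals the values that changed sign were Gapdh -0.54, Tpi1 -0.47, Ldha -0.95, Med22 -0.61, Rnf130 -0.79, Reep5 -0.39, Gm38069 -0.06 and Stc1 -0.04. With log2(TPM + 1) they were Gapdh -1.06, Tpi1 -1.33, Ldha -1.80, Klhl3 -1.20, Ivd -0.50, Med22 -2.20, Ptbp1 -0.60, Snap23 -0.71, Gm38069 -0.55, Stbd1 -0.07 and Stc1 -0.73. With log2(TPM + 0.1) they were Gapdh -1.06, Tpi1 -1.33, Ldha -1.80, Klhl3 -1.31, Ivd -0.51, Med22 -2.36, Ptbp1 -0.61, Snap23 -0.76, Gm38069 -0.85, Stbd1 -0.10 and Stc1 -0.91. With the length offset they were Med22 -0.65, Mkln1 1.55, Sugt1 1.44 and Ube3a 1.32. The cause was not tested. The call of Gapdh was also lost without K812 (adjusted p = 0.0549, edgeR), K819 (0.0578) or R812 (0.106), R819 (0.139) or R852 (0.111), that of Tpi1 without R812 (0.0526), R819 (0.0765) or R852 (0.0703), and that of Slco1a1 without R819 (0.0511). Aqp4 was called without K819 (0.0286) or K861 (0.0151). Each block ended 6 calls of named genes, and the random block also changed the method from edgeR to limma.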
